A study of Mus musculus with 30 samples.

Results

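Expression was described for 10 genes of bone morphogenetic protein (BMP) and transforming growth factor beta (TGF-beta) signaling. They are named by symbol, with earlier results of these data known, and comprise Bmp2, Bmp4, Bmp7, Tgfb1, Tgfb2, Tgfb3, Grem1, Id1, Id3 and Smad7. All 10 were found among the 53431 genes of the deposited RNA-seq count table. The 30 libraries came from CT-26 and Colon 26, carcinoma lines of the BALB/c mouse colon, as 3 cultures of each line and 4 tumors of each model at 3 nominal sizes of 100, 400 and 800 mm3. Tumors had been grown from cells injected under the flank skin of female BALB/c mice, whose age is not given in the sources used here. CT-26 tumors had volumes of 103.33 to 145.86, 400.47 to 464.68 and 810.36 to 938.57 mm3. Colon 26 tumors had volumes of 102.9 to 124.88, 401.52 to 466.73 and 807.93 to 963.18 mm3. The tumors were taken as untreated, because an antibody is named for none of them although the treatment notes describe antibody dosing. Each model is 1 cell line in a host of the same strain that keeps its own immune and stromal cells, and a tumor library holds RNA of carcinoma and host cells together. For the cultures nothing says that the libraries of a group were grown separately, so p-values measure the spread between these samples, which may be technical.

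BMPs and TGF-betas are secreted dimers that bring together type I and type II serine/threonine kinase receptors, which then phosphorylate Smad transcription factors. BMP receptors act mainly through Smad1, Smad5 and Smad9, TGF-beta receptors mainly through Smad2 and Smad3, and both sets of Smads partner with Smad4. In the colon, stromal BMPs favor epithelial differentiation and the antagonist encoded by Grem1 protects the stem cell zone from them, while TGF-beta restrains both epithelial growth and T cells.

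Gene counts per library totalled between 21384730 and 39722586, and the Colon 26 cultures (from 36042940) were deeper than the CT-26 cultures (up to 27856380). The cultures of the lines also carry separate series of library numbers, so model and library series cannot be told apart in culture. Both series lie apart from the numbers of the tumors, so tissue and library series cannot be told apart between tumors and culture. The epithelial marker Epcam had 0 counts in each of the 6 cultures, although both lines are labelled colon carcinoma. The summed FPKM (fragments scaled by gene length and library total) of 9 epithelial markers ran from 25.9 to 27.6 in CT-26 cultures. It ran from 8.01 to 8.54 in Colon 26 cultures. In tumors it ran from 66.6 to 132 in CT-26 and from 7.37 to 24.1 in Colon 26. The CT-26 sum was mostly Krt20, with Krt18 most of the rest in cultures. Krt20 averaged 12.9 FPKM in CT-26 cultures and 72.2, 67.5 and 87.4 in CT-26 tumors of 100, 400 and 800 mm3. Cdx2 went the other way, at 0.0681 FPKM on average in CT-26 cultures and 2.72 in Colon 26 cultures. The sum therefore does not order the models for every marker. The sum of 12 leukocyte markers ran from 49.0 to 52.6 in CT-26 cultures, nearly all of it Cd68, from 2.99 to 4.14 in Colon 26 cultures and from 99.8 to 349 in tumors. The sum of 10 fibroblast and pericyte markers ran up to 31.9 in cultures and from 221 to 526 in tumors. The sum of 6 skeletal muscle markers reached 1610 in replicate 1 of the Colon 26 tumors of 400 mm3. Acta1 alone had 643 FPKM there. The sum lay between 94.9 and 767 in Colon 26 tumors of 100 mm3 and between 2.60 and 3.08 in those of 800 mm3. In CT-26 tumors it ran from 1.40 to 297 at 100 mm3 and up to 191 at 400 mm3. At 800 mm3 it ran from 9.78 to 150 in CT-26, above every Colon 26 tumor of that size. The sum of 5 keratinocyte markers reached 42.9 among CT-26 tumors of 800 mm3 (median 3.29) and at most 5.07 in any other group. Bulk libraries do not separate fewer cells of a type from less RNA per cell.

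Levels were compared between genes in FPKM, as deposited, which is per transcript length. In CT-26 cultures, Grem1 (68.5 ± 1.13 FPKM, SD, n = 3) stood above Tgfb1 (17.0 ± 0.352), Smad7 (9.36 ± 0.514) and Id1 (8.58 ± 0.700), and Bmp2 was at 0.813 ± 0.127. In Colon 26 cultures, Grem1 (132 ± 4.05 FPKM, SD, n = 3) was followed by Bmp4 (39.7 ± 0.827), Id1 (30.4 ± 1.02) and Id3 (19.7 ± 0.408). Bmp7 was the lowest of the 10 genes by mean FPKM in Colon 26 cultures (0.0351 ± 0.0127), and Bmp4 in CT-26 cultures (0.0180 ± 0.0157).

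**Figure D1:**
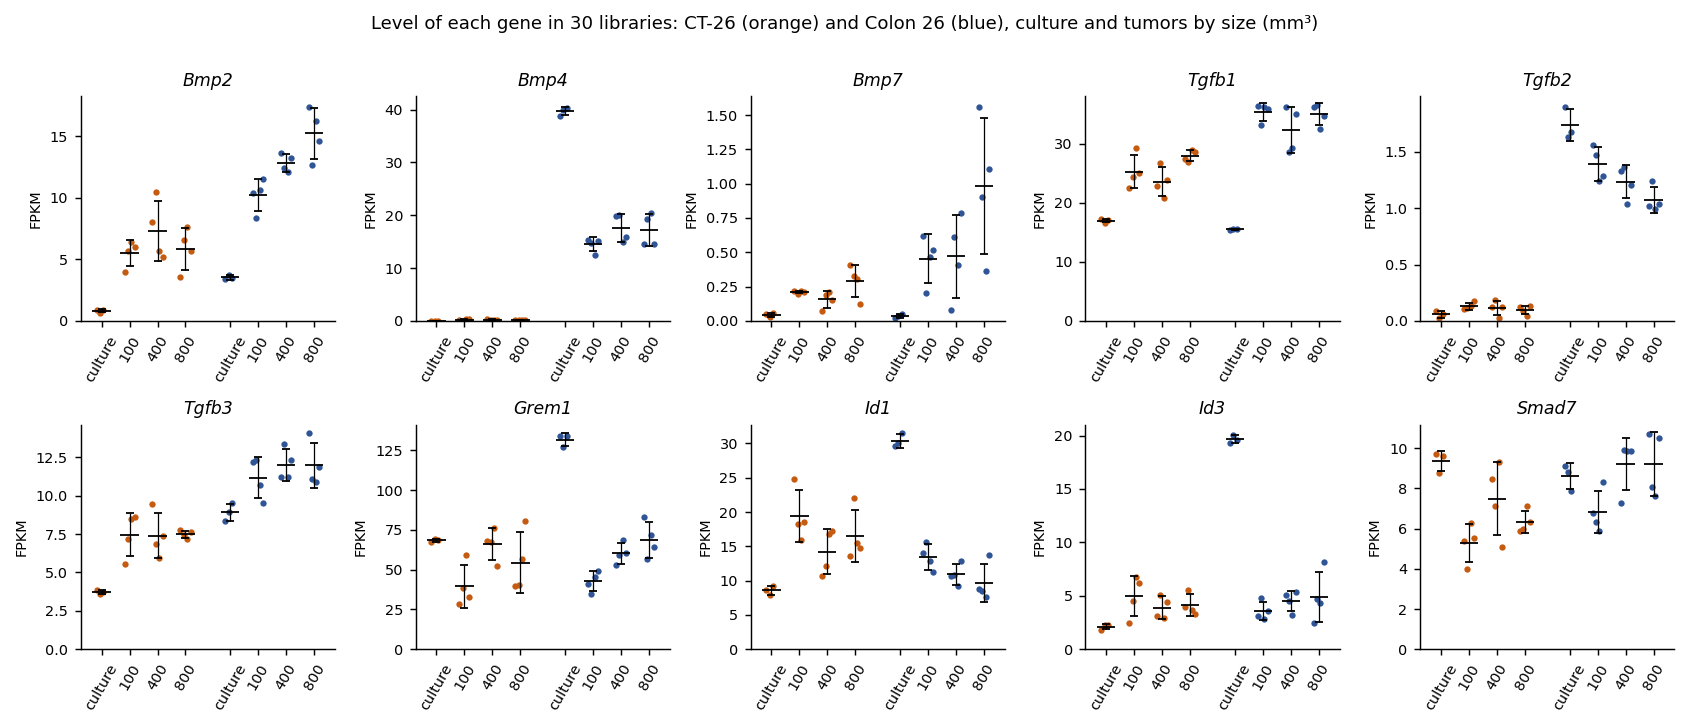
FPKM of each of the 10 genes (linear axis from 0) in every library, with CT-26 in orange and Colon 26 in blue and the groups ordered as culture and tumors of 100, 400 and 800 mm3. Points are libraries, horizontal lines are group means and bars are SD (n = 3 cultures or 4 tumors); Bmp4 is near 0 in every CT-26 group, and Grem1, Id1 and Id3 are highest in Colon 26 cultures.

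The flanking sequence before the start was searched for motifs of Smads, the pathway's own transcription factors, and for a motif of TCF/LEF factors. RefSeq promoters of the GRCm38.p6 assembly were at hand for 5 of the 10 members (Bmp4, Tgfb1, Tgfb2, Grem1 and Id3), and the 250 bases before each start were searched on both strands for the Smad box CAGAC, the GC-rich Smad element GGCGCC and the TCF/LEF motif CTTTGA. The windows of Bmp4 and Tgfb2 are shown because these ligands separated the models in every library, with matches in capitals. The Bmp4 window, at chr14:46390670-46390919 on the minus strand and in no annotated exon, held none of the 3 motifs. The Tgfb2 window, at chr1:186705990-186706239 on the minus strand, overlaps 167 exonic bases of the antisense gene Gm29491 and held 2 Smad boxes, which begin 221 and 204 bases before the start. The whole Id3 window lies in an annotated exon of Id3, so only the 25 bases around each of its 2 Smad boxes are shown, at chr4:136143645-136143669 and chr4:136143744-136143768 on the plus strand. The second of them reads GTCTG, the Smad box of the other strand.
Bmp4: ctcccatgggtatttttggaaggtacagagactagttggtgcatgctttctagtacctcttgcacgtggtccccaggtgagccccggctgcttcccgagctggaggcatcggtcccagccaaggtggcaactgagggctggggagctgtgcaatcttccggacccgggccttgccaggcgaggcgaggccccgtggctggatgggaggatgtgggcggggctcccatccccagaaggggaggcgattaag
Tgfb2: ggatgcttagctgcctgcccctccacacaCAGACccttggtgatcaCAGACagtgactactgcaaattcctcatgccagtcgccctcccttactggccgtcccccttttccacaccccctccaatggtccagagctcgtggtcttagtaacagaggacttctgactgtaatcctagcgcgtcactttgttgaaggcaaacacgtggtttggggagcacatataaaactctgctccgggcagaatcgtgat
Id3, first site: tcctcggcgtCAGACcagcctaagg
Id3, second site: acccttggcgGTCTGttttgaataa

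Across 32841 RefSeq windows of the same length, CAGAC was found in 42.2%, GGCGCC in 9.59% and CTTTGA in 13.8%. The Grem1 window held 1 CAGAC and 1 GGCGCC, the Tgfb1 window held none of the 3, and no member's window held CTTTGA. A match is a description of these letters only.

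Bmp4, a BMP ligand, separated the models in every library (chr14:46383520-46390669, minus strand, GRCm38). The 3 CT-26 cultures had 1, 0 and 1 counts of Bmp4, and the 3 Colon 26 cultures had 2591, 2966 and 3015 counts, or 38.8, 40 and 40.3 FPKM. Taking 3 counts per CT-26 library as the floor, Bmp4 was at least 608-fold higher in Colon 26 cultures. CT-26 tumors held 3 to 18 counts of Bmp4 (0.0475 to 0.408 FPKM over 12 tumors). The lowest of them, replicate 2 at 100 mm3, was at the floor of 3 counts. In Colon 26 tumors, Bmp4 measured 15.4, 14.8, 12.5 and 15.2 FPKM at 100 mm3, 19.9, 20, 15.0 and 15.8 FPKM at 400 mm3, and 14.5, 19.2, 20.5 and 14.6 FPKM at 800 mm3. The 12 values lie below those of the Colon 26 cultures and above those of all CT-26 tumors. The log2 fold change of Colon 26 over CT-26 was 5.96 ± 0.36 (SE, adjusted p = 4.7e-06) at 100 mm3, 6.45 ± 0.23 (adjusted p = 6.9e-07) at 400 mm3 and 6.26 ± 0.21 (adjusted p = 3.3e-08) at 800 mm3. All tests are edgeR's quasi-likelihood tests on TMM-normalized counts with Benjamini-Hochberg adjustment over all genes tested. A difference was called when adjusted p did not exceed 0.1 and the log2 fold change reached 1 in either direction. On the opposite strand Gm15217 shares exonic bases with Bmp4, and the handling of strand is not given in the sources used here, so reads of such pairs cannot be told apart.

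Bmp2, a ligand of the same receptors as Bmp4, was the highest of the 3 BMPs in CT-26 (chr2:133552159-133562885, plus strand, GRCm38). Its FPKM was 0.894, 0.666 and 0.879 in CT-26 cultures and 3.36, 3.76 and 3.46 in Colon 26 cultures. In CT-26 tumors it ranged from 3.97 to 6.42 FPKM at 100 mm3, from 5.19 to 10.5 at 400 mm3 and from 3.53 to 7.61 at 800 mm3. In Colon 26 tumors it ranged from 8.39 to 11.5 FPKM at 100 mm3, from 12.1 to 13.6 at 400 mm3 and from 12.7 to 17.4 at 800 mm3. The models did not overlap within culture or within any tumor size, and in each model every tumor was above every culture. Colon 26 exceeded CT-26 by a log2 fold change of 2.12 ± 0.10 (SE, adjusted p = 1.3e-11) in culture and 1.31 ± 0.21 (adjusted p = 0.00045) at 800 mm3, which were called. At 100 mm3 (0.85 ± 0.14, adjusted p = 0.0012) and 400 mm3 (0.74 ± 0.20, adjusted p = 0.017) the log2 fold changes stayed under the minimum of 1.

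Bmp7, a ligand that can pair with Bmp2 or Bmp4 in a heterodimer, was scarce throughout (chr2:172868012-172940321, minus strand, GRCm38). Cultures held 3 to 5 counts of Bmp7 in CT-26 and 3 to 7 in Colon 26, and the gene did not pass the count filter of that comparison. CT-26 tumors ranged from 0.0721 to 0.404 FPKM and Colon 26 tumors from 0.0771 to 1.56 FPKM, so the models overlapped. Bmp7 was called higher in Colon 26 at 100 mm3 (log2 fold change 1.05 ± 0.32, SE, adjusted p = 0.023), at 400 mm3 (1.5 ± 0.62, adjusted p = 0.079) and at 800 mm3 (1.72 ± 0.45, adjusted p = 0.0088). The call at 100 mm3 was lost without replicate 1 (0.86) or replicate 4 (0.99) of the Colon 26 tumors. The call at 400 mm3 stood in 2 of 8 fits that left out 1 library, with adjusted p up to 0.20, and was lost without replicate 1, 2 or 4 of the CT-26 tumors or replicate 2, 3 or 4 of the Colon 26 tumors. Without the library rich in muscle markers it was 1.86 (adjusted p = 0.0052). At 800 mm3 the call stood in all 8 such fits.

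The makeup of the BMP pool differed between the models. As a share of the summed FPKM of Bmp2, Bmp4 and Bmp7, Bmp4 made up 1.86% ± 1.62 (SD, n = 3) in CT-26 cultures and 91.8% ± 0.380 in Colon 26 cultures. In CT-26 tumors Bmp2 made up 92.7%, 94.9% and 91.9% of the pool on average at the 3 sizes. In Colon 26 tumors the pool was shared, with Bmp4 at 57.6% ± 4.36, 56.9% ± 3.66 and 51.3% ± 6.85 and Bmp2 at 40.6% ± 3.94, 41.6% ± 3.21 and 45.7% ± 5.72 (SD, n = 4) at 100, 400 and 800 mm3.

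Tgfb1, the most widely made TGF-beta and an inhibitor of T cells, was the highest of the 3 TGF-beta ligands in FPKM in every group (chr7:25687002-25705077, plus strand, GRCm38). The cultures were close, at 17.2, 16.6 and 17.1 FPKM in CT-26 and 15.4, 15.5 and 15.6 FPKM in Colon 26. CT-26 tumors ranged from 20.8 to 29.2 FPKM and Colon 26 tumors from 28.6 to 36.5 FPKM, and within each size the models did not overlap. The log2 fold change of Colon 26 over CT-26 was -0.14 ± 0.04 (SE, adjusted p = 0.0028) in culture and 0.44 ± 0.07 (adjusted p = 0.0011), 0.39 ± 0.09 (adjusted p = 0.0068) and 0.26 ± 0.07 (adjusted p = 0.0082) at the 3 tumor sizes, all under the minimum of 1.

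Tgfb2, a TGF-beta that needs a co-receptor to bind well, was low in CT-26 and clearly counted in Colon 26 (chr1:186622792-186705989, minus strand, GRCm38, with exons that overlap those of Gm29491 on the other strand). CT-26 cultures had 7, 4 and 7 counts of Tgfb2, and Colon 26 cultures had 317, 303 and 307. CT-26 tumors held 4 to 28 counts (0.0278 to 0.181 FPKM), and Colon 26 tumors held 131 to 239 counts (0.995 to 1.56 FPKM). No Colon 26 library overlapped a CT-26 library. The log2 fold change of Colon 26 over CT-26 was 5.0 ± 0.20 (SE, adjusted p = 1.1e-12) in culture, 3.33 ± 0.21 (adjusted p = 5e-06) at 100 mm3, 3.27 ± 0.40 (adjusted p = 0.00027) at 400 mm3 and 3.44 ± 0.28 (adjusted p = 5.9e-06) at 800 mm3.

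Tgfb3, the third TGF-beta ligand, was also higher in Colon 26 (chr12:86056745-86079041, minus strand, GRCm38, with exons that overlap those of Gm37804 and Gm48008 on the other strand). Cultures measured 3.83, 3.59 and 3.74 FPKM in CT-26 and 8.36, 8.91 and 9.50 FPKM in Colon 26. Tumors ranged from 5.57 to 9.46 FPKM in CT-26 and from 9.55 to 14.1 FPKM in Colon 26, without overlap. The difference was called in culture (log2 fold change 1.25 ± 0.06, SE, adjusted p = 1.4e-11). In tumors it was 0.54 ± 0.13 (adjusted p = 0.0092), 0.64 ± 0.13 (adjusted p = 0.0045) and 0.62 ± 0.09 (adjusted p = 0.00035) at 100, 400 and 800 mm3, under the minimum of 1. Of the summed FPKM of the 3 TGF-betas, Tgfb1 made up 81.8% ± 0.294 (SD, n = 3) in CT-26 cultures and 59.3% ± 0.892 in Colon 26 cultures, where Tgfb3 made up 34.1% ± 1.44 and Tgfb2 6.64% ± 0.649. In tumors the shares were closer, with Tgfb1 at 75.9% to 78.6% on average in CT-26 and 70.7% to 73.8% in Colon 26.

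Grem1, a secreted antagonist that binds BMP2 and BMP4 and keeps them from their receptors, was abundant in both models (chr2:113746164-113758646, minus strand, GRCm38). It measured 67.2, 69.3 and 68.9 FPKM in CT-26 cultures and 134, 127 and 134 FPKM in Colon 26 cultures. At 100 mm3 it measured 28.4, 38.4, 59.1 and 33 FPKM in CT-26 tumors and 41.3, 34.7, 45.5 and 49.3 FPKM in Colon 26 tumors. At 800 mm3 the tumors ranged from 39.6 to 80.6 FPKM in CT-26 and from 56.7 to 83.0 FPKM in Colon 26. Tumors of the models overlapped at every size, whereas the cultures did not. The log2 fold change of Colon 26 over CT-26 in culture, 0.93 ± 0.03 (SE, adjusted p = 2.7e-13), was just under the minimum of 1, which it reached (1.0) without the filter on low counts. In tumors it was 0.06 ± 0.21 (adjusted p = 0.83), -0.20 ± 0.15 (adjusted p = 0.31) and 0.28 ± 0.22 (adjusted p = 0.32), with 95% intervals of -0.35 to 0.47, -0.50 to 0.10 and -0.16 to 0.71.

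Relative to the summed Bmp2, Bmp4 and Bmp7, Grem1 stood higher in every CT-26 library than in any Colon 26 library. The ratio of Grem1 to the summed FPKM of Bmp2, Bmp4 and Bmp7 was 69.0, 71.7 and 99.6 from the lowest to the highest CT-26 culture, and 2.91, 3.07 and 3.19 in Colon 26 cultures. In CT-26 tumors the ratio averaged 6.63 ± 1.34, 9.11 ± 2.69 and 8.97 ± 3.42 (SD, n = 4) at 100, 400 and 800 mm3. In Colon 26 tumors it averaged 1.69 ± 0.208, 1.97 ± 0.392 and 2.06 ± 0.319. The highest ratio of a Colon 26 tumor (2.49) was under the lowest of a CT-26 tumor (5.13). Bmp6, a further BMP ligand, measured 0.409 ± 0.0276 FPKM (SD, n = 3) in CT-26 cultures and 0.174 ± 0.0370 in Colon 26 cultures. With Bmp6 added to the sum, a choice made after the data were seen, the ratio was 53.8 ± 7.21 in CT-26 cultures and 3.05 ± 0.140 in Colon 26 cultures, and averaged 6.14 to 8.18 in CT-26 tumors and 1.68 to 2.05 in Colon 26 tumors. These are ratios of mRNA levels, built from genes whose differences are given above, and no test was made on them.

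**Figure D2:**
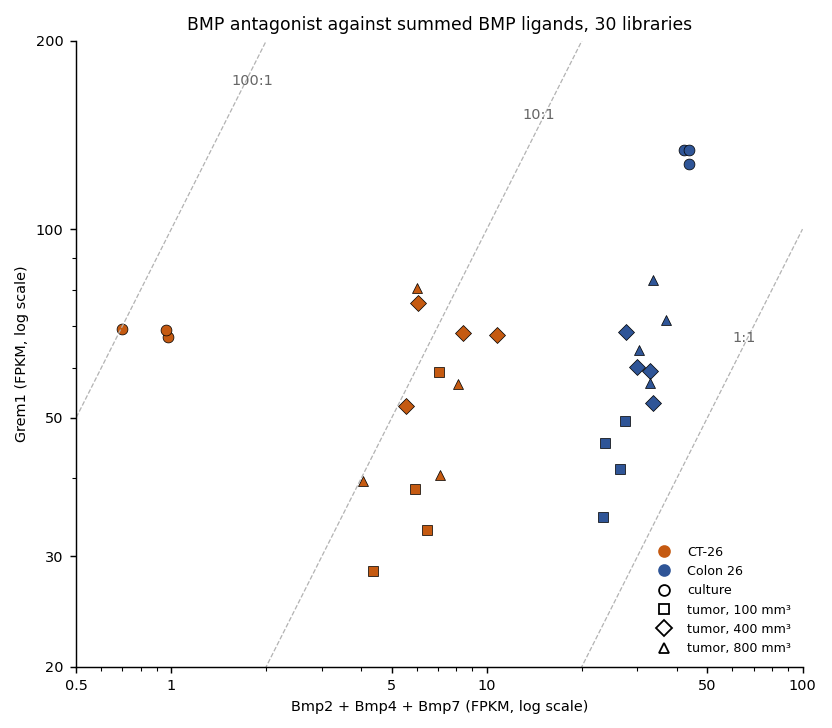
Grem1 (vertical) against the sum of Bmp2, Bmp4 and Bmp7 (horizontal), both in FPKM on log axes, with 1 point per library and dashed lines at ratios of 1, 10 and 100. CT-26 cultures (orange circles) lie at 0.696 to 0.974 FPKM of BMPs and Colon 26 cultures (blue circles) at 42.1 to 43.8, and the tumors of the models form separate clouds between them.

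Id1, a helix-loop-helix protein that blocks differentiation factors and is a direct target of BMP Smads, had model differences of opposite sign in culture and in tumors (chr2:152736251-152737410, plus strand, GRCm38). It measured 8.66, 7.85 and 9.24 FPKM in CT-26 cultures and 29.6, 30 and 31.5 FPKM in Colon 26 cultures. In tumors of 100 mm3 it measured 24.8, 18.2, 15.9 and 18.6 FPKM in CT-26 and 14.0, 15.7, 12.8 and 11.3 FPKM in Colon 26. At 400 and 800 mm3 CT-26 tumors ranged from 10.7 to 22.0 FPKM and Colon 26 tumors from 7.68 to 13.8 FPKM, with overlap. Colon 26 was called higher in culture (log2 fold change 1.81 ± 0.06, SE, adjusted p = 2.9e-13). In tumors the log2 fold change was -0.58 ± 0.16 (adjusted p = 0.016), -0.44 ± 0.18 (adjusted p = 0.071) and -0.83 ± 0.22 (adjusted p = 0.0082), which did not reach the minimum of 1. At 800 mm3 it did (-1.05) without replicate 4 of the Colon 26 tumors.

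Id3, a BMP target of the same family, differed more in culture and not detectably in tumors (chr4:136143497-136145755, plus strand, GRCm38). It measured 1.83, 2.25 and 2.28 FPKM in CT-26 cultures and 19.3, 20.1 and 19.6 FPKM in Colon 26 cultures, a log2 fold change of 3.19 ± 0.08 (SE, adjusted p = 3.4e-15). Tumors ranged from 2.49 to 6.72 FPKM in CT-26 and from 2.45 to 8.15 FPKM in Colon 26, and they overlapped at every size. The log2 fold changes in tumors were -0.51 ± 0.29 (adjusted p = 0.18), 0.16 ± 0.22 (adjusted p = 0.57) and 0.17 ± 0.32 (adjusted p = 0.68) at 100, 400 and 800 mm3. Their 95% intervals were -1.08 to 0.06, -0.26 to 0.59 and -0.45 to 0.79. The ratio of Id1 to Id3 in FPKM was 4.09 ± 0.621 (SD, n = 3) in CT-26 cultures and 1.54 ± 0.0590 in Colon 26 cultures.

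Smad7, which blocks receptors of both branches as a feedback inhibitor, was called in no comparison (chr18:75367529-75395935, plus strand, GRCm38). Group means lay between 5.29 and 9.36 FPKM, and the groups overlapped with their neighbors all along the order of levels. Within 800 mm3 the models did not overlap, at 5.89 to 7.11 FPKM in CT-26 and 7.6 to 10.7 FPKM in Colon 26. Cultures measured 9.73, 8.78 and 9.59 FPKM in CT-26 and 9.13, 8.84 and 7.89 FPKM in Colon 26. The log2 fold change of Colon 26 over CT-26 was -0.20 ± 0.04 (SE, adjusted p = 0.0003) in culture and 0.25 ± 0.14 (adjusted p = 0.18), 0.22 ± 0.21 (adjusted p = 0.42) and 0.48 ± 0.13 (adjusted p = 0.011) in tumors of the 3 sizes, so no difference was called. Without the library rich in muscle markers the value at 400 mm3 was 0.35 (adjusted p = 0.20).

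**Figure D3:**
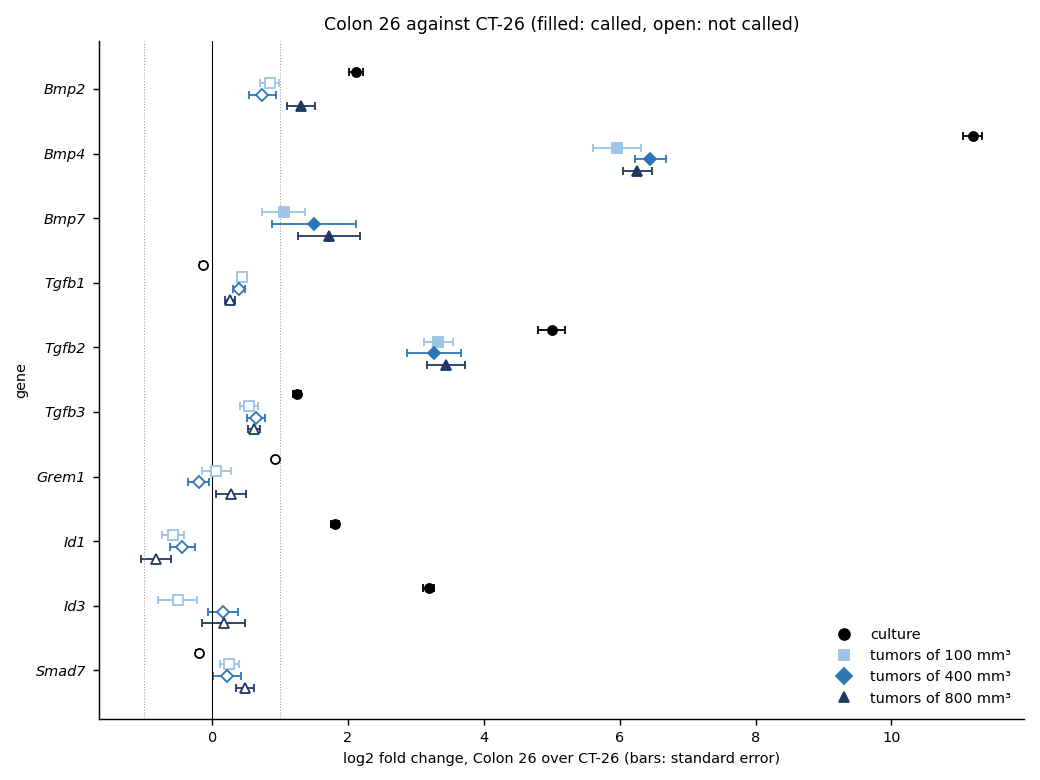
Fitted log2 fold change of Colon 26 over CT-26 (horizontal, bars are SE) for each gene in culture (circles) and in tumors of 100 (squares), 400 (diamonds) and 800 mm3 (triangles), with called differences filled and dotted lines at -1 and 1. Bmp4 and Tgfb2 are called higher in Colon 26 in all 4 comparisons, and Id1 and Id3 in culture; the Bmp4 value in culture (11.20) is fitted against libraries with at most 1 count and depends on the prior count, and Bmp7 in culture is not shown because it did not pass the count filter.

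Between the models, the share of members called was above that of all genes in culture and at each tumor size. In tumors it rests on 3 or 4 genes. In culture 6 of the 9 members tested were called, all higher in Colon 26, beside 22.9% of the 14334 genes tested. In tumors 3 of 10 members were called at 100 mm3 (Bmp4, Bmp7 and Tgfb2) beside 13.2% of genes. The same 3 were called at 400 mm3 beside 14.3%, and 4 at 800 mm3, with Bmp2 added, beside 14.1%. Fits that left out 1 library called 2 to 3 members at 100 and at 400 mm3, and 4 to 5 at 800 mm3. At 400 mm3 the Bmp7 call stood in 2 of 8 such fits, among them the fit without the library rich in muscle markers. The 10 genes were chosen with earlier results of these data known, so these shares describe the list and test nothing about it. These 4 comparisons use separate libraries, whereas the comparisons of tumors with culture and of tumor sizes use the same libraries again, so their values are given side by side without a measure of likeness.

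Bmp2 and Bmp7 rose from culture to tumors of 100 mm3 in both models, whereas Id1 and Id3 rose in CT-26 and fell in Colon 26. For each other member that was tested in both models, the change was called in at most 1 of them. In CT-26, 6 of the 9 members tested were called, all higher in tumors, beside 32.2% of the 15370 genes tested. Their log2 fold changes were 2.76 ± 0.19 (SE) for Bmp2, 2.19 ± 0.31 for Bmp7, 1.34 ± 0.39 for Tgfb2, 1.22 ± 0.32 for Id3, 1.19 ± 0.17 for Id1 and 1.0 ± 0.14 for Tgfb3, with adjusted p of at most 0.015. The Tgfb3 call, at the edge of the minimum, was lost without replicate 3 or 4 of the tumors or replicate 2 or 3 of the cultures (0.93 at the lowest). Grem1 (-0.79 ± 0.21, adjusted p = 0.0098), Smad7 (-0.65 ± 0.14, adjusted p = 0.0027) and Tgfb1 (0.57 ± 0.08, adjusted p = 0.0003) stayed under the minimum, and Grem1 passed it (-1.02) without replicate 3 of the tumors. Bmp4 did not pass the count filter here, and against the floor of 3 counts per culture its tumors were at least 3.3-fold higher.

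In Colon 26, 7 of 10 members were called between tumors of 100 mm3 and culture, 3 higher and 4 lower, beside 26.9% of the 15946 genes tested. Bmp7 (log2 fold change 3.65 ± 0.47, SE), Bmp2 (1.56 ± 0.10) and Tgfb1 (1.21 ± 0.04) were higher in tumors. Id3 (-2.42 ± 0.15), Grem1 (-1.61 ± 0.10), Bmp4 (-1.48 ± 0.07) and Id1 (-1.13 ± 0.10) were lower in tumors, and adjusted p was at most 9.5e-05 for these 7 genes. Tgfb2 (-0.25 ± 0.10, adjusted p = 0.041), Tgfb3 (0.35 ± 0.09, adjusted p = 0.0069) and Smad7 (-0.14 ± 0.08, adjusted p = 0.14) were not called. Between culture and tumors of either model, the leukocyte, endothelial (0.806 to 3.27 against 21.8 to 68.3 FPKM over 8 markers) and fibroblast marker sums were higher in every tumor than in every culture, and their part in these changes was not tested.

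**Figure D4:**
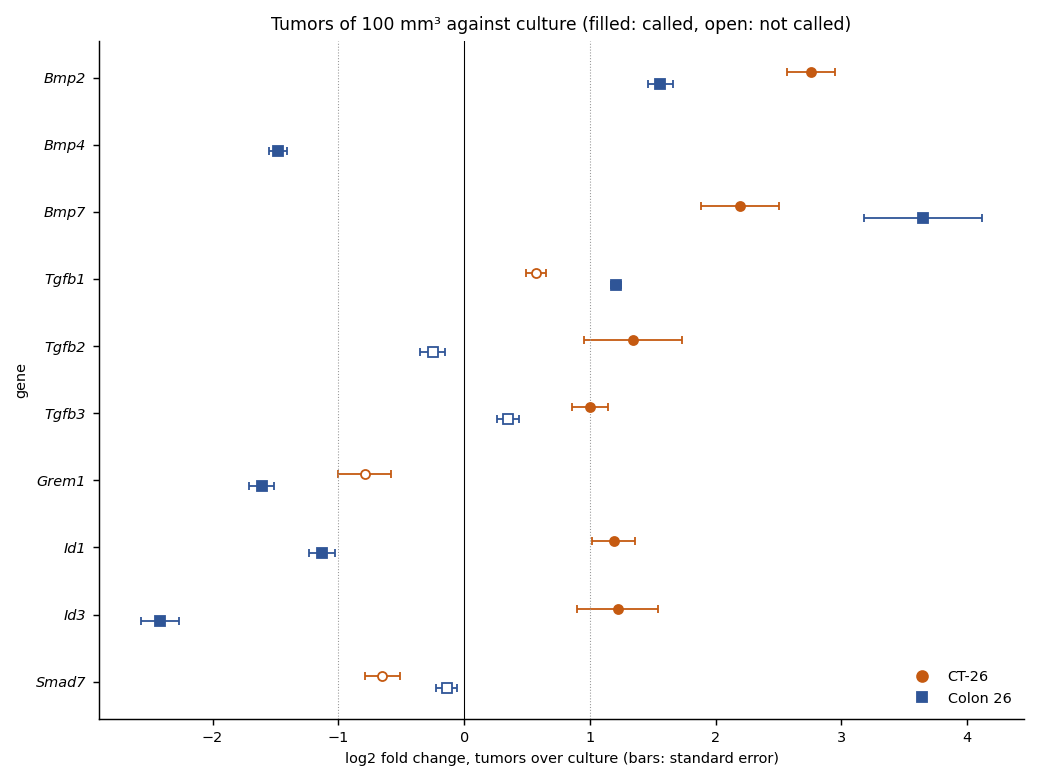
Fitted log2 fold change of tumors of 100 mm3 over culture (horizontal, bars are SE) in CT-26 (orange circles) and Colon 26 (blue squares), with called changes filled and dotted lines at -1 and 1. Id1 and Id3 were higher in CT-26 tumors (1.19 and 1.22) and lower in Colon 26 tumors (-1.13 and -2.42), and Bmp4 of CT-26 is not shown because it did not pass the count filter.

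The change of the model difference from culture to tumors of 100 mm3 was tested directly as an interaction term. It was called for 6 of 10 members, beside 17.6% of the 16501 genes tested. The log2 difference of Colon 26 over CT-26 changed by -5.22 ± 0.76 (SE, adjusted p = 7.9e-05) for Bmp4, by -3.69 ± 0.37 (adjusted p = 3.2e-06) for Id3 and by -2.37 ± 0.20 (adjusted p = 7.2e-07) for Id1. It changed by -1.65 ± 0.33 (adjusted p = 0.0012) for Tgfb2 and by -1.25 ± 0.22 (adjusted p = 0.00033) for Bmp2. These calls stood in all 14 fits that left out 1 library. Bmp7 went the other way (1.41 ± 0.62, adjusted p = 0.079) and kept its call in 4 of those 14 fits, with adjusted p of 0.13 by DESeq2 and 0.25 with all 30 libraries in one fit. The Bmp4 value rests on CT-26 cultures with at most 1 count and depends on the prior count.

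No member was called between tumor sizes in either model. From 100 to 400 mm3 no member was called in CT-26 (0 of 9, beside 0% of the 15104 genes tested) or in Colon 26 (0 of 10, beside 0.0131% of the 15241 genes tested). From 100 to 800 mm3 no member was called in CT-26 (0 of 10, beside 0% of the 15298 genes tested) or in Colon 26 (0 of 10, beside 1.33% of the 15404 genes tested). Members with an unadjusted p under 0.05 numbered 2 and 5 at 400 mm3 and 0 and 6 at 800 mm3, in CT-26 and Colon 26 respectively. DESeq2 called 0 members in the first 3 of these comparisons and 1, Bmp7 (1.14), in Colon 26 at 800 mm3. Over all genes the CT-26 comparisons had 3356 and 1610 genes with an unadjusted p under 0.05, and DESeq2 called 162 and 39.

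In Colon 26, Grem1 and Bmp2 stood higher in large tumors than in small ones without overlap. Grem1 measured 34.7 to 49.3 FPKM at 100 mm3 and 56.7 to 83.0 FPKM at 800 mm3, a log2 fold change of 0.69 ± 0.14 (SE, adjusted p = 0.035), and Bmp2 had one of 0.57 ± 0.12 (adjusted p = 0.041), both under the minimum of 1. In the same libraries the skeletal muscle marker sum was 94.9 to 767 FPKM at 100 mm3 and 2.60 to 3.08 FPKM at 800 mm3, with all 6 markers over 3 counts at 100 mm3, and its part in these values was not tested. In CT-26 tumors Grem1 and Bmp2 overlapped between sizes. There the log2 fold change of Grem1 was 0.79 ± 0.22 (adjusted p = 0.12) from 100 to 400 mm3. From 100 to 800 mm3 it was 0.48 ± 0.27 (adjusted p = 0.53), and that of Bmp2 was 0.12 ± 0.23 (adjusted p = 0.88). The change of the model difference from 100 to 800 mm3 was called for 0 of 10 members by edgeR and by DESeq2, with 0 at an unadjusted p under 0.05, beside 0.0308% of the 16238 genes tested.

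Of 98 further genes of these pathways, listed by role, 62 were tested in culture, where 19 were called higher and 4 lower in Colon 26, beside 22.9% called in either direction over all genes. In tumors the counts were 11 higher and 2 lower of 69 tested at 100 mm3 (beside 13.2% of all genes), 12 and 3 of 68 at 400 mm3 (beside 14.3%), and 17 and 3 of 69 at 800 mm3 (beside 14.1%). Among 18 receptors and co-receptors, 13 were tested in culture and 1, the BMP co-receptor Rgmb (log2 fold change 1.09 ± 0.04, SE), was called, and 0 of 15, 1 of 14 and 2 of 14 were called in tumors of 100, 400 and 800 mm3, all higher in Colon 26. The median log2 fold change of the receptors was 0.15 in culture and 0.29 at 100 mm3, beside 0.01 and 0.00 over all genes.

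Of the genes that store and activate latent TGF-beta, 12 were tested in culture and 9 were called, beside 22.9% of all genes. Of these, 8 were higher in Colon 26, and the list had a median log2 fold change of 1.40 beside 0.01 over all genes. The higher ones included the matrix genes Ltbp2 (4.43 ± 0.07, SE, adjusted p = 2.9e-17) and Fbn1 (4.03 ± 0.07, adjusted p = 6.4e-17) and the activating integrin subunit Itgb8 (3.96 ± 0.24, adjusted p = 1.7e-10). The 1 lower gene was Lrrc32, which tethers latent TGF-beta to the cell surface, at least 5.61-fold lower against Colon 26 cultures at the floor. In tumors of 100 mm3, 5 of 14 were called (beside 13.2% of all genes), all higher, with Ltbp2 at 2.07 ± 0.15 and Lrrc32 at 1.48 ± 0.11. At 400 and 800 mm3, 4 and 6 of 14 were called, beside 14.3% and 14.1%. In the same tumors of 100 mm3 the sum of the 10 fibroblast and pericyte markers was 221 to 443 FPKM in CT-26 and 408 to 522 FPKM in Colon 26. Of these markers, Pdgfra (6.03 against 15.9 FPKM on average) and Postn (9.81 against 39.9) were higher in Colon 26 without overlap. So were Acta2 (11.3 against 24.7), Lum (6.45 against 15.0) and Cspg4 (0.481 against 10.0). The other 5 overlapped, with means higher in CT-26 for Dcn (99.9 against 44.8), Pdgfrb (21.3 against 18.3) and Rgs5 (8.79 against 7.97). Col3a1 (157 against 235) and Thy1 (24.9 against 33.2) had higher means in Colon 26. In cultures Cspg4 averaged 0.0369 FPKM in CT-26 and 10.5 in Colon 26, Pdgfra 3.16 and 5.59, and Pdgfrb 6.2 and 13.7. These genes therefore do not mark host cells alone. The part of these cell types in the values of the matrix genes was not tested.

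Among secreted inhibitors, Fstl1, a follistatin-related protein, was higher in Colon 26 in culture (log2 fold change 5.65 ± 0.06, SE, adjusted p = 9.9e-20) and in tumors of 100 mm3 (2.42 ± 0.11, adjusted p = 8.6e-07). It was the only one of the 10 inhibitors tested in culture, Grem1 among them, to be called. At 100 mm3, 5 of 11 were called (beside 13.2% of all genes), with the BMP antagonist Nbl1 (1.39 ± 0.15) higher and the activin antagonist Fst (-1.13 ± 0.33) lower in Colon 26. Of the ligands that were not members, Bmp6 was lower in Colon 26 in culture (-1.25 ± 0.24, adjusted p = 0.0002), at 400 mm3 (-1.62 ± 0.34, adjusted p = 0.0047) and at 800 mm3 (-1.29 ± 0.32, adjusted p = 0.0063). Gdf15, a stress-induced member of the superfamily, was at least 455-fold higher in Colon 26 cultures and 3.70 ± 0.39 higher on the log2 scale at 100 mm3 (adjusted p = 8e-05).

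Of 19 immediate targets, which include Id1, Id3 and Smad7, 14 were tested in culture and 9 were called, beside 22.9% of all genes. The 7 higher ones in Colon 26 included Atoh8 (log2 fold change 4.58 ± 0.29, SE, adjusted p = 3.1e-10), a transcription factor induced by BMP, and Smad6 (3.44 ± 0.13, adjusted p = 4.9e-13), the inhibitory Smad of the BMP branch. The 2 lower ones were Ccn2 (-4.32 ± 0.08, adjusted p = 7.8e-17) and Tgfbi (-2.29 ± 0.35, adjusted p = 1.9e-05), both known as TGF-beta targets, and Tgfbi is named because of this count, after its value was seen. From culture to tumors of 100 mm3, 12 of 16 targets were called higher and 0 lower in CT-26, and 7 of 17 higher and 5 lower in Colon 26. Over all genes 32.2% were called in CT-26, 3406 higher and 1546 lower, and 26.9% in Colon 26, 3321 higher and 975 lower. Between the models in tumors of 100 mm3 none of the 16 targets tested was called, with a median log2 fold change of 0.05 beside 0.00 over all genes, and 2 of 16 and 3 of 17 were called, all higher in Colon 26, at 400 and 800 mm3. The interaction term was called for Atoh8 (-4.84 ± 0.54, adjusted p = 8.3e-06), Smad6 (-2.50 ± 0.24, adjusted p = 2.2e-06) and Ccn2 (3.83 ± 0.57, adjusted p = 0.0001), so their model differences changed between culture and tumors as well.

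**Figure D5:**
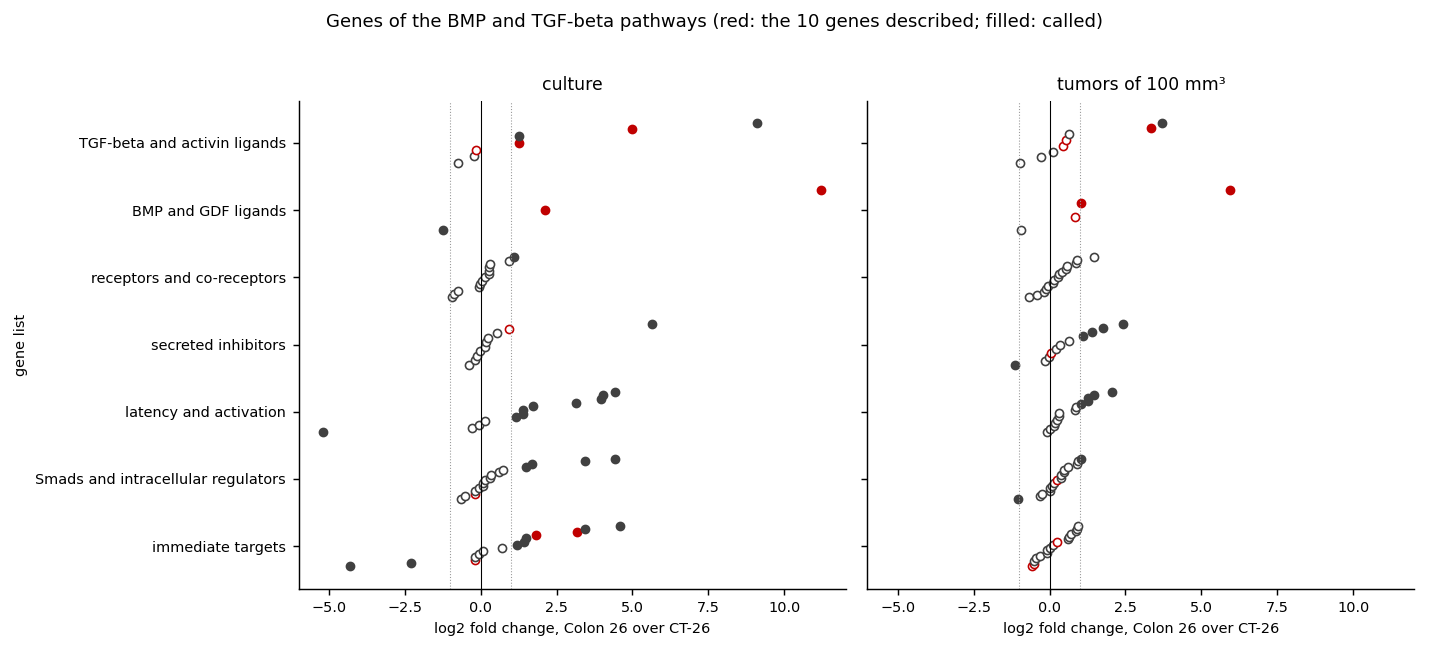
Fitted log2 fold change of Colon 26 over CT-26 (horizontal) for the tested genes of 7 role lists (vertical), in culture (left) and in tumors of 100 mm3 (right). Each point is a gene, the 10 described genes are red, called genes are filled and dotted lines mark -1 and 1; immediate targets hold 9 called genes in culture and 0 in tumors of 100 mm3.

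For each member, the genes whose log2 CPM (counts scaled to the TMM-adjusted library total) ran most like it over the 30 libraries were described. They were found among 17139 genes. The points share libraries and fall into model and tissue groups, so no p is given. Bmp4 ran most like Padi4 (Pearson r = 0.992), Prickle2 (0.988) and A030001D20Rik (0.987), and Tgfb2 like Cpt1c (0.983), and these values were at least 0.981 over the 24 tumors alone. Bmp4 and Tgfb2 themselves had r = 0.972 over the 30 libraries. Grem1 ran most like Fndc3b (0.921, and 0.892 in tumors). Id3 ran most like Ttll4 (0.849) and Atoh8 (0.844), which dropped to 0.238 and 0.480 over the tumors alone. The nearest gene was Cd82 for Bmp2 (0.966), Gprasp1 for Bmp7 (0.879), Tfpi2 for Tgfb1 (0.962), Prdm11 for Tgfb3 (0.959), Gm10184 for Id1 (0.901) and Inpp5e for Smad7 (0.845).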

How the data were processed

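Poly-A RNA was sequenced as paired-end libraries. Per the authors, reads were assigned to Ensembl release 78 genes in Array Studio. The deposited estimated counts are not normalized, and 23% of the non-zero values are not whole numbers. They also deposited FPKM, scaled by gene length and library total. The aligner, genome build and handling of strand are not given in the sources used here. The authors ran DESeq2 1.24.0, per their methods and the labels.

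The planned design assumed whole counts, so the estimated counts were rounded first. Each comparison used only its own libraries and edgeR 4.0.16 (R 4.3.3, limma 3.58.1), namely filterByExpr, TMM factors and a quasi-likelihood test. P-values were adjusted by Benjamini-Hochberg over all genes tested, and SE was derived from the F statistic. The 95% intervals are the log2 fold change ± 1.96 SE. They ignore the few libraries per group and are therefore somewhat too narrow. The thresholds of the study were used for calls, adjusted p up to 0.1 and a log2 fold change of 1 or more in either direction. Interaction terms tested changes of the model difference. A group with at most 3 counts in every library was at the floor, and folds against it use 3 counts per library and the mean CPM of the other group. Floors cover counting error only, since reads carry no molecular identifiers. CPM and log2 CPM used library totals adjusted by TMM factors over all 30 libraries, and log2 CPM used a prior count of 2.

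Groups were assigned from labels, which carry no replicate numbers; replicate numbers here are only names. Symbols, positions and exons came from the GENCODE annotation of GRCm38, which named 52207 of 53431 identifiers (97.7%). All members, at most 4 called genes of each role list with the largest change in comparisons between models, and the 3 genes most like each member may be named. The members and lists were chosen with earlier results of these data known. Alternatives were DESeq2 1.42.0, RLE factors, library size only, no filter, no minimum fold change, all 30 libraries in one fit, and leaving out each replicate, and Bmp6 was added to the BMP sum after the data were seen. The fits were tested on simulated data. Summaries used Python 3.11.15 with pandas 2.3.3 and numpy 2.4.6, and figures matplotlib 3.10.9. Antibody treatment, flow cytometry and exome data were not analysed here.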

Additional observations from a re-analysis of the deposited data

Results flagged for a closer look

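Of 60 groups of 4 tumors (10 genes in 6 groups), 2 held a library whose FPKM lay far from the others by Dixon's test, where chance alone gives about 1 in 20. Tgfb1 had its lowest value among Colon 26 tumors of 100 mm3, 33.1 FPKM, while the other 3 lay between 35.9 and 36.3. Smad7 had its lowest value among Colon 26 tumors of 400 mm3, 7.26 FPKM in replicate 1, while the other 3 lay between 9.85 and 9.90. This is the library with a skeletal muscle marker sum of 1610 FPKM, and the part of muscle RNA in its Smad7 value was not tested.

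For 6 genes the difference between Colon 26 and CT-26 changed from culture to tumors of 100 mm3 by the interaction term of edgeR's quasi-likelihood test. The changes, on the log2 scale, were -1.25 for Bmp2, -5.22 for Bmp4, -1.65 for Tgfb2, -2.37 for Id1, -3.69 for Id3 and 1.41 for Bmp7. The Bmp7 call stood in only 4 of 14 fits that left out 1 library. The cultures of the models carry separate library number series, so the library series and the model cannot be told apart in the cultures that enter these terms.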

How the results depend on the processing

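Counts of members called stayed within 1.5 times the reported count for RLE factors, library size only, no filter on low counts and all 30 libraries in one fit, in all 12 comparisons. Without a minimum fold change the counts were 7 at 100 mm3, 7 at 400 mm3 and 8 at 800 mm3 between the models, 2 for Colon 26 tumors of 800 over 100 mm3 and 10 for the change of the model difference from culture to tumors of 100 mm3, since a smaller change then sufficed. DESeq2 called 1 member, Bmp7, in Colon 26 tumors of 800 over 100 mm3. Leaving out 1 replicate gave 6 to 6 members in culture, 2 to 3 at 100 mm3, 2 to 3 at 400 mm3 and 4 to 5 at 800 mm3 between the models. Against culture it gave 5 to 7 in CT-26 and 7 to 7 in Colon 26, and for the model difference 5 to 6. For Colon 26 tumors of 800 over 100 mm3 it gave 0 to 1, with Bmp7 called without replicate 3 of the tumors of 800 mm3. Called genes that lost their call under an alternative were Bmp7 and Tgfb3, as given with their values, and no called value changed sign under any of these. No paired analysis was possible because the labels carry no replicate numbers. Depth limits Bmp4, Bmp7 and Tgfb2 in CT-26, where libraries held 0 to 18, 3 to 43 and 4 to 28 counts of them.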
